A study of Homo sapiens with 11 samples.

Results

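The set described here held 44 genes that encode histone lysine methyltransferases and demethylases, chosen by symbol and matched by Ensembl ID among the 57736 gene IDs of the count table. Of these, 28 were methyltransferases and 16 demethylases, and every symbol found an ID. After a filter on low counts 13980 genes were tested, among them 43 of the 44. The demethylase KDM8 was left out by that filter, with 3 and 5 counts in R183W WM1119 libraries, 1, 4 and 6 in R183W vehicle libraries, 3, 2 and 0 in WT WM1119 libraries, and 0, 0 and 2 in WT vehicle libraries.

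RNA was sequenced from HEC50B, a human endometrial cancer cell line whose parental form holds a mutant PPP2R1A with the R183W change. PPP2R1A is the scaffold of PP2A, a phosphatase. A matched line had been returned to wild type (WT) with CRISPR, and the labels do not say whether that line is 1 clone. Each line received 50 µM WM1119, which inhibits the lysine acetyltransferase KAT6A, or vehicle for 4 days. The 11 libraries thus formed 4 groups, namely R183W cells with WM1119 (n = 2), R183W cells with vehicle (n = 3), WT cells with WM1119 (n = 3) and WT cells with vehicle (n = 3). The labels number the replicates without saying that they are separate cultures, so p-values reflect only how far these samples differ, and that spread may be technical.

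Histone lysine methyltransferases transfer methyl groups from S-adenosylmethionine (SAM) to lysines of histones, and demethylases remove them with flavin or with iron and 2-oxoglutarate as cofactors. Methylation of H3K4 marks promoters and enhancers, that of H3K36 and H3K79 the bodies of transcribed genes, and that of H3K9, H3K27 and H4K20 mostly silent or compacted chromatin. Many of these enzymes work in complexes, such as MLL/COMPASS for H3K4 and Polycomb repressive complex 2 (PRC2) for H3K27. Genes of several chromatin regulators, among them members of the KMT2 family, are mutated in endometrial carcinomas.

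The smallest library, WT WM1119 library 3, held 2609922 counts and the largest, R183W vehicle library 1, held 6065149. All levels below are CPM, in which counts are set against a library total scaled by its TMM factor. Taking 3 counts as the floor, a gene without counts may still lie at 1.24 CPM in the smallest library and at 0.495 CPM in the largest. WT WM1119 library 3 stood apart. Its log expression correlated with the other libraries of its group at 0.917 and 0.937, against 0.957 to 0.975 for the other pairs within groups. It differed more than 1.5-fold from the mean of the other libraries of its group in 14 of the 43 members tested (32.6%) and in 43% of all genes tested, and for the members described one by one, values that rest on WT cells with WM1119 are therefore also given without it. PPP2R1A averaged 30.0 ± 4.41 CPM in R183W cells with WM1119, 34.3 ± 2.86 CPM in R183W cells with vehicle, 27.8 ± 3.36 CPM in WT cells with WM1119 and 23.2 ± 2.69 CPM in WT cells with vehicle (SD). PPP2R1A was higher in R183W than in WT cells under vehicle by 0.56 (edgeR adjusted p = 0.0463). KAT6A averaged 179 CPM in R183W cells with WM1119, 170 CPM in R183W cells with vehicle, 223 CPM in WT cells with WM1119 and 149 CPM in WT cells with vehicle, and passed no test. Gene-level counts do not show the R183W base change or the activity of KAT6A. Epithelial markers summed to between 988 and 1860 CPM per library, led by KRT18 at up to 1570 CPM. Of these 8 markers 6 passed the filter, and under vehicle edgeR called 2 higher and 2 lower in R183W than in WT cells. The lineage factor PAX8 reached 549 CPM, while PGR and SOX17, markers of the endometrial epithelium, had no counts. Mesenchymal markers, led by VIM, summed to between 816 and 1350 CPM, and fibroblast markers to between 653 and 1050 CPM, with COL1A1 at up to 927 CPM and COL3A1 and DCN without counts. The endothelial genes CDH5, KDR and CLDN5 and the immune genes CD3E and LYZ had no counts in any library, and CD68 reached 10.9 CPM.

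Most of the 44 enzymes were expressed, at very different levels per transcript length. On the scale of CPM per kb of the longest protein-coding transcript, EZH2 had the highest mean over the 11 libraries, 47.2, with single libraries between 34.5 and 67.7. It was followed by the H4K20 monomethyltransferase KMT5A with a mean level of 39.4, KMT2A with 37.0, SMYD3 with 33.5, KMT2E with 32.8, KMT5B with 32.5 and the H3K36 demethylase KDM2A with 29.9 CPM per kb. The library ranges of neighbours among these 7 genes overlapped, so their order is not fixed by these data. The lowest levels were those of the H3K9 demethylase KDM7A at 0.849, the H3K27 demethylase KDM6B at 0.431, the H3K4 methyltransferase KMT2D at 0.353, KDM4C at 0.344 and KDM8 at 0.222 CPM per kb. The KMT2 family spread over much of this range, with KMT2A at 37.0 against KMT2C at 9.67, KMT2B at 3.17 and KMT2D at 0.353 CPM per kb. RSEM shares reads among similar sequences, and KMT2C has duplicated copies elsewhere in the genome, so its level is uncertain.

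**Figure D1:**
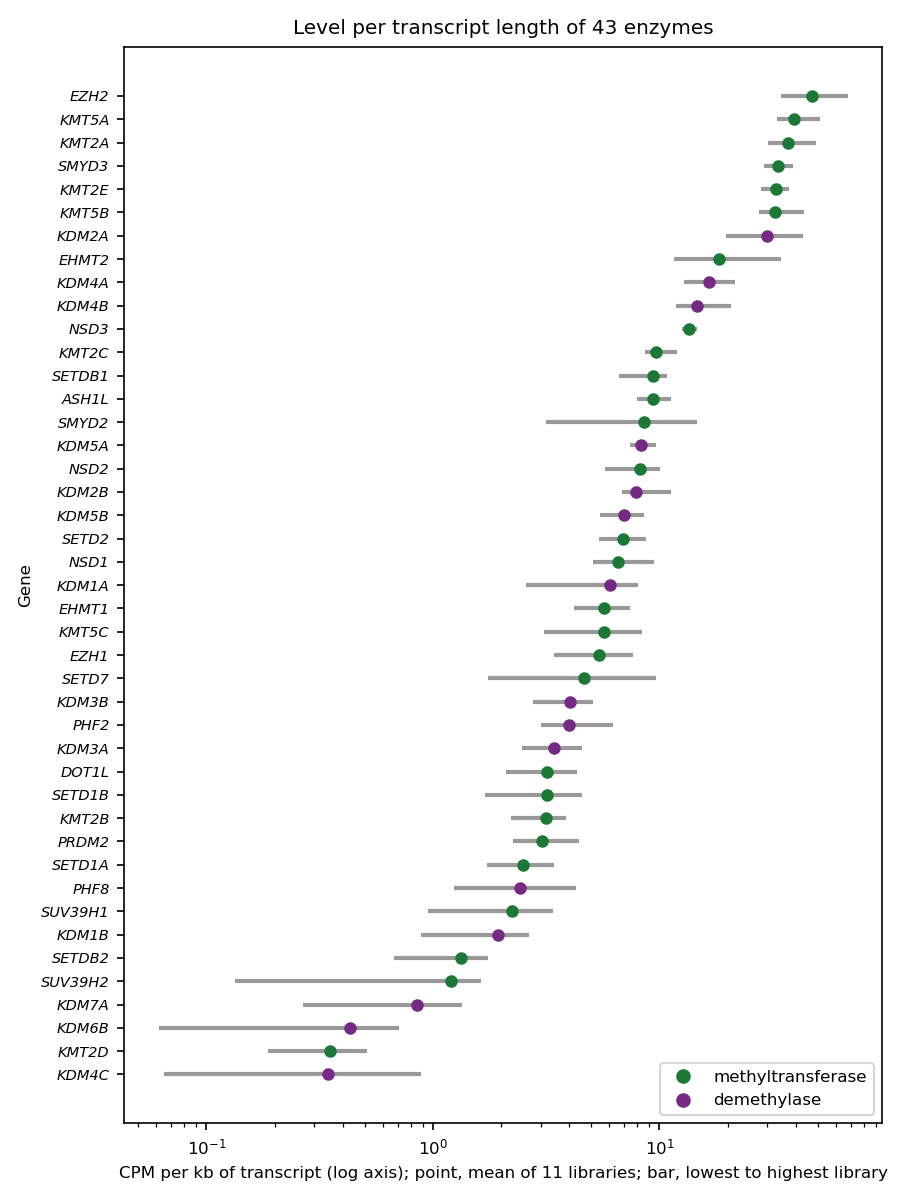
Level of the 43 tested enzymes in CPM per kb of the longest protein-coding transcript (log axis), with a point for the mean of the 11 libraries and a bar from the lowest to the highest library, green for methyltransferases and purple for demethylases. EZH2 lies at the top with a mean of 47.2, and KDM6B, KMT2D and KDM4C lie at the bottom with means under 0.5.

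Across the comparisons few of these genes passed the test, and their changes were small. WM1119 lowered EZH2 in R183W cells and changed no other member there by the test, 1 of 43 members (2.33%) beside 4.64% of all genes tested, of which 2.65% were lower. In WT cells with WM1119 against vehicle no member passed in edgeR's test, beside 4.86% of all genes. Between the genotypes under vehicle EZH2 was higher and SETD1B lower in R183W cells, 2 of 43 members (4.65%) beside 13% of all genes, 6.82% higher and 6.17% lower. Under WM1119 NSD2 was lower in R183W than in WT cells, 1 of 43 members (2.33%) beside 8.56% of all genes, of which 3.92% were lower. No member passed the test of the interaction, which subtracts the WM1119 effect of WT cells from that of R183W cells, beside 0.286% of all genes. In this fit the share of members that passed was thus no higher than the share of all genes in any comparison. With DESeq2 it was higher in 3 comparisons, 16.3% against 15.6% of all genes between the genotypes under vehicle, 14% against 10.8% under WM1119 and 2.33% against 1.21% in the interaction. With limma-voom it was 16.3% against 15.4% under vehicle, and in edgeR without the filter it was 6.82% against 4.74% for WM1119 in R183W cells, 11.4% against 10.2% under vehicle and 2.27% against 0.816% in the interaction. Unless another tool is named, calls are from edgeR's quasi-likelihood test with Benjamini-Hochberg adjusted p under 0.05 over all genes tested, and changes are log2 ratios with standard errors (SE).

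The counts of 0 depend on the threshold and the tool. At an unadjusted p under 0.05 in edgeR, 6 members lay in the WT comparison of WM1119 with vehicle and 3 in the interaction, 14% and 6.98% of members beside 21.3% and 9.3% of all genes. DESeq2 called 1 member in each, KDM5B in WT cells (2.33% of members beside 7.98% of all genes) and EZH2 in the interaction, and limma-voom called none in either. The median absolute log2 change of the 43 members was 0.22 for WM1119 in R183W cells, 0.25 for WM1119 in WT cells, 0.20 for R183W against WT under vehicle and 0.26 under WM1119. Over all genes tested the same medians were 0.32, 0.31, 0.34 and 0.35.

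**Figure D2:**
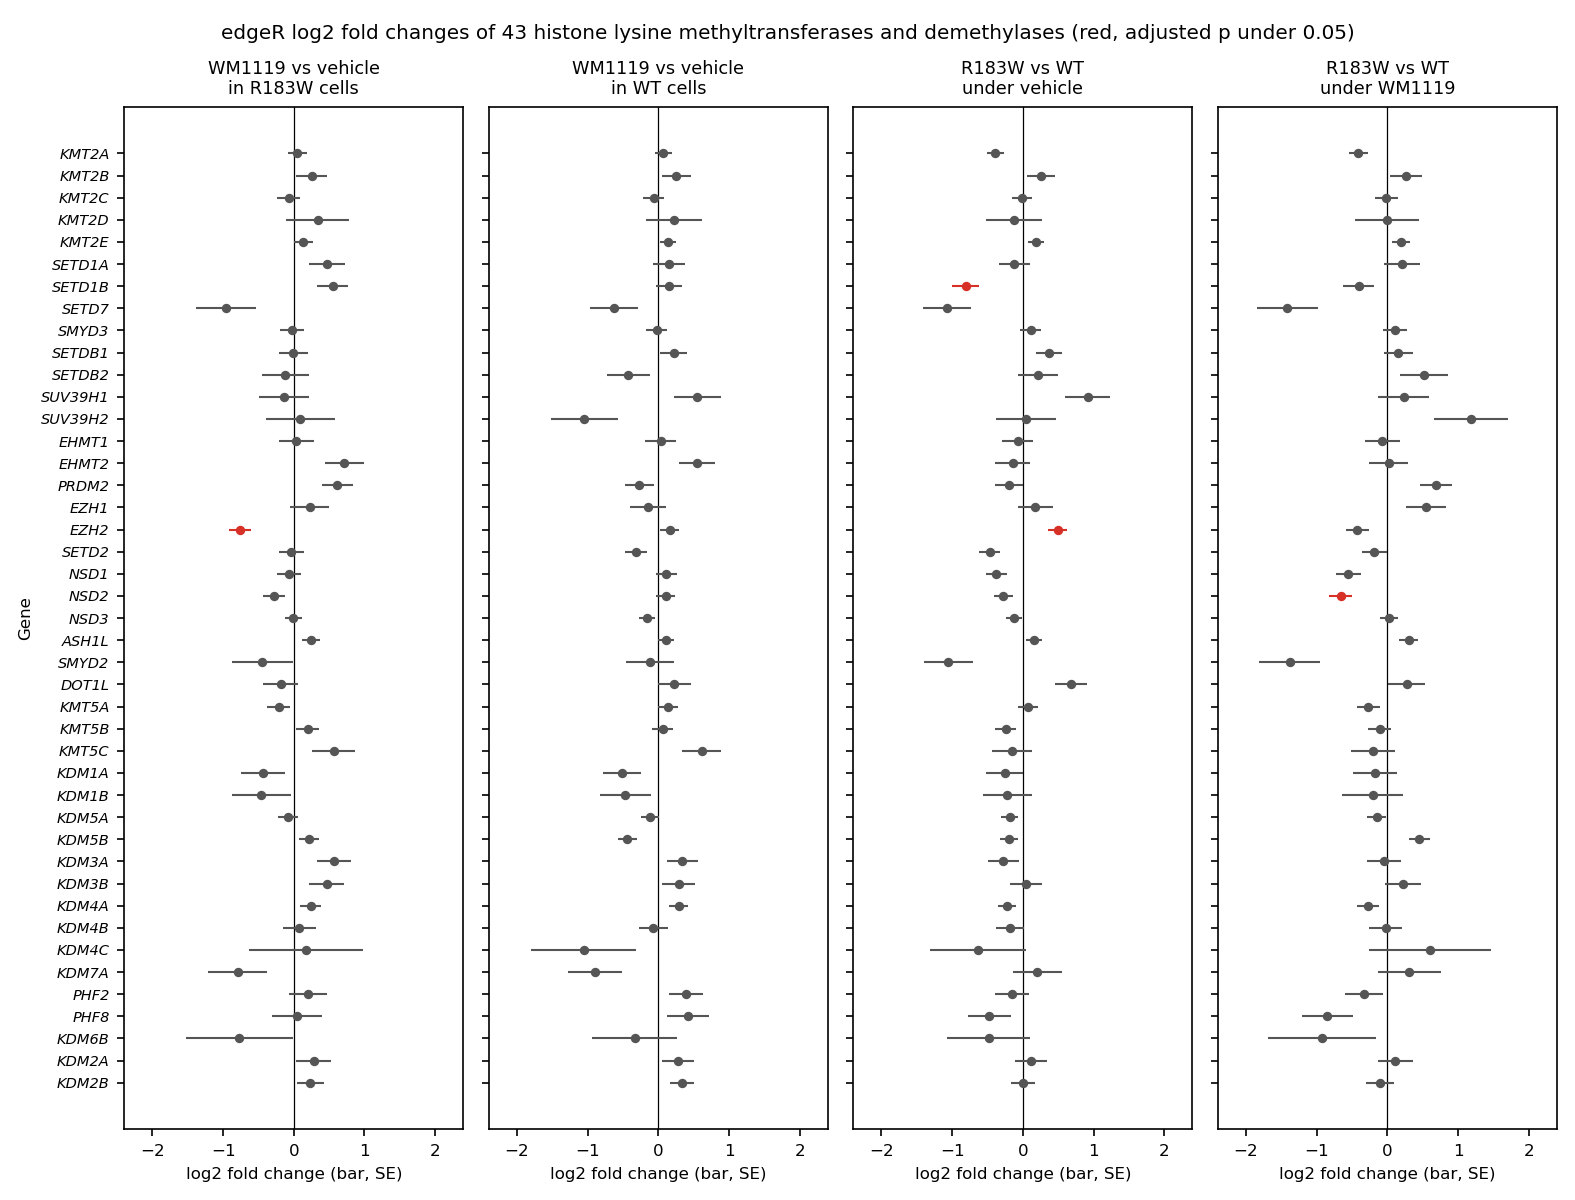
Log2 change ± SE of each of the 43 tested enzymes in 4 comparisons, grouped by role, with members that passed edgeR's test in red. Most points lie within 0.5 of 0, and the red points are EZH2 with WM1119 in R183W cells, EZH2 and SETD1B in R183W against WT under vehicle, and NSD2 in R183W against WT under WM1119.

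EZH2, the main catalytic subunit of PRC2, and NSD2, which dimethylates H3K36, carried 3 of the 4 calls. The 250 bases upstream of their RefSeq start sites (GRCh38.p14) are shown because both genes are among the called members. The EZH2 sequence is chr7:148884292-148884541 on the minus strand and that of NSD2 is chr4:1871143-1871392 on the plus strand, each printed 5′ to 3′ toward the start site. Capitals mark CCAAT or its reverse complement ATTGG, the core bound by NF-Y, and TTTGAA, the letters of a cell cycle homology region (CHR).
EZH2: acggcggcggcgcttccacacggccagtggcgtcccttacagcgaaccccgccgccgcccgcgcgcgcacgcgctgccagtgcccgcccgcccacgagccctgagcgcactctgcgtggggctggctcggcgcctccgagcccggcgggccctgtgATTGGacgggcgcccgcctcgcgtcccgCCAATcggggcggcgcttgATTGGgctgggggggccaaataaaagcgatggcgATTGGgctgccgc
NSD2: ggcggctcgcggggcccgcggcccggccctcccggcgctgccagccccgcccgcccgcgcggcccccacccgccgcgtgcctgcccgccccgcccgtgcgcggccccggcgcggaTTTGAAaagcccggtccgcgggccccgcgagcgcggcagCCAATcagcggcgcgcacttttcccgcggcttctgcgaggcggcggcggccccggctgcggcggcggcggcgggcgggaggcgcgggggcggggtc
The EZH2 promoter, 75.6% GC, held CCAAT at 66 to 62 bases upstream on the printed strand and, on the other strand, at 94 to 90, 47 to 43 and 13 to 9 bases. The NSD2 promoter, 86% GC, held CCAAT at 96 to 92 bases and TTTGAA at 135 to 130 bases upstream. A stretch just downstream of the EZH2 start site was found in a GENCODE 29 transcript of that gene, and that of NSD2 was not. The NSD2 start site and its positions are thus less certain. Both strands were searched, and these 2 motifs do not overlap each other here. CCAAT occurred in 33% of 27305 promoters of this length and in 11 of the 41 members with an entry (26.8%). TTTGAA occurred in 13.6% of all promoters and in 3 members (7.32%), NSD2, PHF8 and PRDM2. The E2F letters TTTGGCGC and TTTCGCGC occurred in 0.553% and 0.469% of all promoters and in none of the 41. SETD1B, DOT1L and NSD3 were not among the 41. A match describes these letters only.

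Among the H3K27 methyltransferases, EZH2 (ENSG00000106462) stood at 90.9 and 95.4 CPM in R183W cells with WM1119, against 159, 179 and 135 CPM in R183W cells with vehicle. The groups did not overlap, and EZH2 fell by 0.76 ± 0.16 on the log2 scale (SE; 95% interval -1.10 to -0.42; edgeR adjusted p = 0.0153). In bulk RNA, fewer cells that express a gene and less RNA per cell cannot be told apart. In WT cells EZH2 had 122, 112 and 142 CPM with WM1119 and 105, 112 and 119 CPM with vehicle. These overlapped, with a log2 change of 0.16 and an edgeR adjusted p of 0.55 (0.07 and 0.838 without WT WM1119 library 3). The difference between these responses, -0.92 ± 0.21 (95% interval -1.37 to -0.47), had an edgeR adjusted p of 0.12 in the interaction test, so the genotypes are not shown to differ at the threshold. Without WT WM1119 library 3 the interaction was -0.85 with an edgeR adjusted p of 0.0325. The genotypes were also compared within each treatment. Under vehicle, EZH2 was 0.49 ± 0.14 higher in R183W than in WT cells on the log2 scale (edgeR adjusted p = 0.0312), and the 3 R183W libraries lay above the 3 WT libraries. Under WM1119 the log2 difference was -0.42 (edgeR adjusted p = 0.119), or -0.35 without WT WM1119 library 3 (0.109), and the 2 R183W libraries lay below the 3 WT libraries. The R183W vehicle libraries enter both calls, so the 2 calls are not independent.

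The EZH2 calls rested on few libraries. The WM1119 call in R183W cells was lost in edgeR without R183W vehicle library 2 (adjusted p = 0.0768), R183W WM1119 library 1 (0.149) or library 2 (0.132), where 1 remaining library was taken to vary like the other groups, and the change ran from -0.86 to -0.66 over all 11 leave-outs. The genotype call under vehicle was lost in edgeR when any library but R183W vehicle library 3 was left out of the groups compared, with adjusted p from 0.0633 to 0.143. EZH1, the second PRC2 methyltransferase, passed no test, with log2 changes of 0.22 for WM1119 in R183W cells, -0.15 in WT cells, 0.18 for R183W against WT under vehicle and 0.55 under WM1119. Without WT WM1119 library 3 the values of EZH1 were -0.32 in WT cells and 0.71 under WM1119 (edgeR adjusted p = 0.54 and 0.0865).

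Of the remaining PRC2 genes, a list of 10 with measured counts, none passed in either WM1119 comparison, and 2 were lower in R183W than in WT cells under vehicle and 1 under WM1119. The list's medians were -0.08 for WM1119 in R183W cells, -0.04 in WT cells, -0.27 for R183W against WT under vehicle and -0.21 under WM1119, beside medians of all genes between -0.02 and 0.00. SUZ12, a core subunit of PRC2, had 172.5 and 182.7 CPM in R183W WM1119 libraries and 251, 238 and 281 CPM in WT WM1119 libraries. Under vehicle SUZ12 had 152, 176 and 187 CPM in R183W libraries and 266, 220 and 237 CPM in WT libraries. The R183W libraries lay below the WT libraries under both treatments, by 0.53 under WM1119 (edgeR adjusted p = 0.036, held in 5 of 11 leave-outs) and by 0.49 under vehicle (0.0208, held in 7). LCOR, the other gene called, whose locus also encodes the PRC2 partner PALI1, was lower under vehicle by 0.53 (edgeR adjusted p = 0.04, held in 3 of 11). EZH2 and SUZ12, subunits of 1 complex, thus differed in opposite directions between the genotypes under vehicle.

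**Figure D3:**
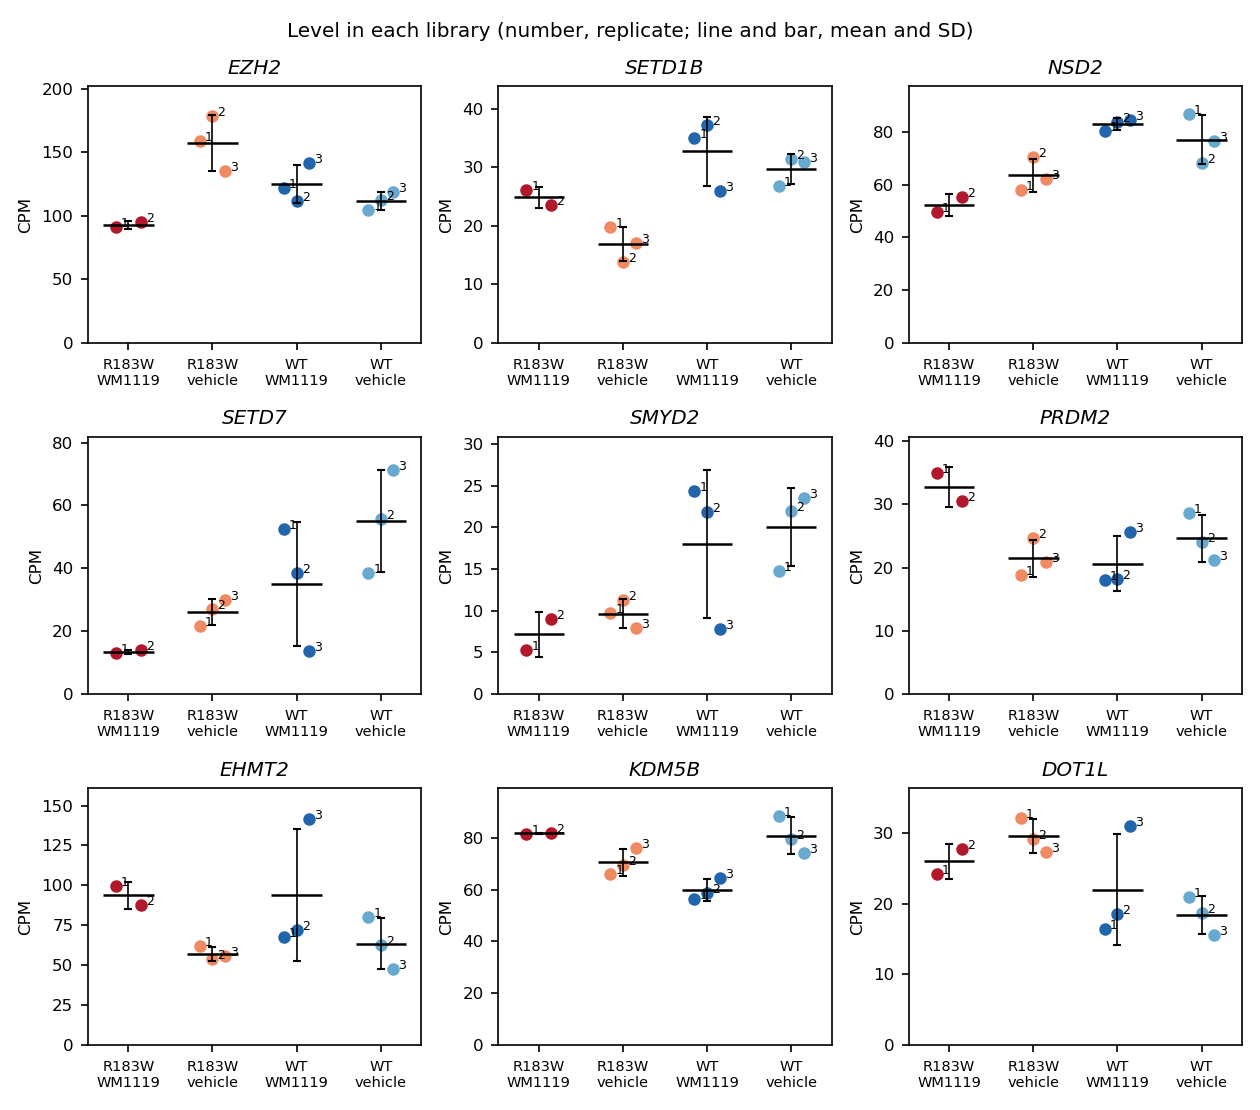
Level in CPM of 9 enzymes in each of the 11 libraries, a point per library, with the mean ± SD of each group. EZH2 has its lowest libraries, 90.9 and 95.4 CPM, in R183W cells with WM1119 and its highest in R183W cells with vehicle. WT WM1119 library 3 lies away from the other libraries of its group for SETD7, SMYD2, EHMT2, DOT1L, SETD1B and PRDM2.

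The H3K4 methyltransferases comprised the KMT2 and SETD1 enzymes of MLL/COMPASS and SETD7 and SMYD3, which also methylate proteins other than histones. SETD1B (ENSG00000139718), a catalytic subunit of the SET1 complexes that place most promoter H3K4 trimethylation, was the called member. It had 19.8, 13.9 and 17.0 CPM in R183W vehicle libraries, against 26.8, 31.4 and 30.9 CPM in WT vehicle libraries. No R183W library reached a WT library, and the difference was -0.81 ± 0.19 (95% interval -1.22 to -0.39; edgeR adjusted p = 0.0141). It was lost without R183W vehicle library 2 (edgeR adjusted p = 0.072), WT vehicle library 2 (0.0686) or WT vehicle library 3 (0.0513). With WM1119, SETD1B had 26.2 and 23.6 CPM in R183W libraries and 34.9, 37.2 and 26.0 CPM in WT libraries, which overlapped, with a difference of -0.41 (edgeR adjusted p = 0.287), or -0.55 without library 3 (0.0721). WM1119 against vehicle gave 0.55 in R183W cells (edgeR adjusted p = 0.176), where the WM1119 libraries lay above the vehicle libraries, and 0.15 in WT cells (0.697), or 0.28 without library 3 (0.43).

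SETD7, a monomethyltransferase of H3K4 and of several transcription factors, had the most negative log2 values between the genotypes. It stood at 21.6, 27.2 and 29.8 CPM in R183W vehicle libraries, against 38.6, 55.7 and 71.1 CPM in WT vehicle libraries. With WM1119 it stood at 13.0 and 13.9 CPM in R183W libraries, against 52.5, 38.5 and 13.6 CPM in WT libraries. Only the WT WM1119 library that stood apart overlapped the R183W values. The differences of -1.08 ± 0.34 under vehicle and -1.41 ± 0.43 under WM1119 did not pass (edgeR adjusted p = 0.052 and 0.0577). Over all 11 libraries both passed in DESeq2 (adjusted p = 0.023 and 0.0136) and in edgeR without the filter (1.63e-05 and 5.99e-06). In limma-voom only the difference under vehicle passed (adjusted p = 0.0406). Without WT WM1119 library 3 they were -1.07 and -1.78 and passed (edgeR adjusted p = 0.00131 and 0.000387). WM1119 against vehicle gave -0.96 ± 0.43 in R183W cells (edgeR adjusted p = 0.229), where the groups did not overlap, and passed at -0.98 without that WT library (0.026), which is in neither group of that comparison and enters its fit through the shared spread. In WT cells the same comparison gave -0.63 ± 0.34 (edgeR adjusted p = 0.311), and -0.27 without library 3 (0.548).

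KMT2A, which acts at promoters of developmental genes, was the H3K4 enzyme of highest CPM. KMT2A, named after its values were seen, had 517, 528 and 501 CPM in R183W vehicle libraries, against 761, 662 and 603 CPM in WT vehicle libraries. The genotypes did not overlap, and the difference of -0.39 narrowly missed the threshold (edgeR adjusted p = 0.052), while DESeq2 called it (adjusted p = 0.0219). Under WM1119 KMT2A had 520 and 547 CPM in R183W libraries and 650, 662 and 814 CPM in WT libraries, a difference of -0.41 (edgeR adjusted p = 0.0901), or -0.31 without library 3 (0.0663). DESeq2 called KMT2A under WM1119 as well, over all 11 libraries (adjusted p = 0.046). WM1119 against vehicle gave 0.05 in R183W cells and 0.07 in WT cells for KMT2A (edgeR adjusted p = 0.881 and 0.79), the WT value turning to -0.04 without library 3 (0.892). Over the 9 H3K4 methyltransferases the median log2 change was 0.14 and 0.13 for WM1119 in R183W and WT cells, and -0.12 and -0.01 for R183W against WT under vehicle and WM1119. Without library 3 it was 0.11 in WT cells and 0.08 under WM1119, so the sign of the last is not fixed.

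MLL/COMPASS holds further subunits that set the activity of the KMT2 and SETD1 enzymes. Of 13 such genes none passed for WM1119 in R183W cells, 1 rose and 1 fell in WT cells with WM1119, and 1 was lower in R183W than in WT cells under each treatment. CXXC1, which brings SETD1 complexes to CpG islands, rose by 0.81 in WT cells with WM1119 (edgeR adjusted p = 0.0424, held in 2 of 11 leave-outs). BOD1L1, a partner of SETD1A at replication forks, fell by 0.54 in WT cells with WM1119 (edgeR adjusted p = 0.0263, held in 8) and was lower in R183W cells under vehicle by 0.50 (0.0193, held in 6). PSIP1, the chromatin reader that tethers menin and KMT2A, was lower in R183W cells under WM1119 by 0.54 (edgeR adjusted p = 0.0389, held in 4).

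The H3K36 methyltransferases had the lowest medians between the genotypes among roles with 3 or more methyltransferases, -0.33 under vehicle and -0.37 under WM1119, with 5 and 4 of the 6 members negative (also -0.37 and 4 under WM1119 without WT WM1119 library 3). NSD2 (ENSG00000109685) had 49.4 and 55.3 CPM in R183W WM1119 libraries, against 80.2, 83.7 and 84.6 CPM in WT WM1119 libraries. The groups were well apart, by -0.66 ± 0.16 (95% interval -1.0 to -0.32; edgeR adjusted p = 0.0197), and the library that stood apart lay with its group for this gene (-0.66 without it, edgeR adjusted p = 0.00819). The call was lost without R183W WM1119 library 1 (edgeR adjusted p = 0.182) or library 2 (0.096) or WT WM1119 library 2 (0.0544), and in a fit of these 5 libraries alone (0.106). Under vehicle NSD2 had 58.1, 70.4 and 62.0 CPM in R183W libraries and 86.6, 68.0 and 76.4 CPM in WT libraries, which overlapped (difference -0.28, edgeR adjusted p = 0.205). WM1119 against vehicle gave -0.28 in R183W cells (edgeR adjusted p = 0.354) and 0.11 in WT cells (0.705), or 0.09 without WT WM1119 library 3 (0.774).

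SMYD2, a methyltransferase of H3K36 and of p53, followed SETD7 in the size of the genotype difference. It had 9.73, 11.3 and 7.91 CPM in R183W vehicle libraries, against 14.7, 21.9 and 23.5 CPM in WT vehicle libraries. With WM1119 SMYD2 had 5.28 and 9.06 CPM in R183W libraries, against 24.4, 21.8 and 7.84 CPM in WT libraries, where again only library 3 overlapped the R183W values. The differences of -1.06 ± 0.35 and -1.38 ± 0.43 did not pass (edgeR adjusted p = 0.0607 and 0.0634). Over all 11 libraries both passed in DESeq2 (adjusted p = 0.0347 and 0.0251) and in edgeR without the filter (0.00357 and 0.00186), and neither in limma-voom. Without library 3 they were -1.05 and -1.73 and passed (edgeR adjusted p = 0.00502 and 0.00133). NSD1, a dimethyltransferase of H3K36, gave -0.37 under vehicle and -0.55 under WM1119 (edgeR adjusted p = 0.125 and 0.0674), and SETD2, which places H3K36 trimethylation, gave -0.47 under vehicle (0.0579) and -0.19 under WM1119 (0.565), where its libraries overlapped. Without library 3 the values under WM1119 were -0.41 for NSD1 and -0.33 for SETD2 (edgeR adjusted p = 0.0633 and 0.156). Over all 11 libraries DESeq2 called NSD1 under WM1119 (adjusted p = 0.0375) and SETD2 under vehicle (0.0348), and limma-voom called SETD2 under vehicle (0.0407). NSD1 and SETD2 were named after their values were seen. ASH1L and NSD3 gave 0.16 and -0.13 under vehicle, so the role did not move as a whole.

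Among the H3K9 methyltransferases none passed in the 5 comparisons of the edgeR fit with the filter and TMM factors over all 11 libraries. PRDM2, a zinc finger protein with a methyltransferase domain, had 35.0 and 30.5 CPM in R183W WM1119 libraries, against 18.8, 24.6 and 20.9 CPM in R183W vehicle libraries. In WT cells PRDM2 had 18.0, 18.2 and 25.6 CPM with WM1119 and 28.6, 24.0 and 21.3 CPM with vehicle. The R183W groups did not overlap and the WT groups did. The interaction was 0.89 ± 0.30 (edgeR adjusted p = 0.324), or 1.03 without WT WM1119 library 3 (0.0856), and the difference of R183W from WT cells under WM1119, 0.69 (0.0769), passed without WT WM1119 library 3 at 0.84 (0.0132). EHMT2 (G9a), a dimethyltransferase of H3K9 named after its values were seen, had 99.8 and 87.9 CPM in R183W WM1119 libraries, against 62.2, 53.7 and 55.6 CPM in R183W vehicle libraries. Its change of 0.72 ± 0.28 did not pass (edgeR adjusted p = 0.168) and did so at 0.69 without WT WM1119 library 3 (0.016). It also passed over all 11 libraries when the filter on low counts was left off (0.69, edgeR adjusted p = 0.0131). In WT cells EHMT2 had 67.7, 72.2 and 142 CPM with WM1119 and 79.9, 62.5 and 47.8 CPM with vehicle (log2 change 0.55, edgeR adjusted p = 0.227), and library 3 alone lay above all the vehicle libraries. Without it the WT change of EHMT2 was 0.15 (edgeR adjusted p = 0.707). With all 11 libraries and no filter the WT change was 0.54 and passed (edgeR adjusted p = 0.0469).

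SUV39H1 and SUV39H2, which trimethylate H3K9 in heterochromatin, were low. SUV39H1 had 10.1, 7.92 and 7.10 CPM in R183W vehicle libraries, against 5.35, 5.15 and 2.82 CPM in WT vehicle libraries, without overlap (0.92 ± 0.32, edgeR adjusted p = 0.0757, and 0.0416 without WT WM1119 library 3), and limma-voom called it (0.97, adjusted p = 0.0486). SUV39H2 had 2.20, 3.08 and 0.413 CPM in WT WM1119 libraries, against 3.57, 4.57 and 4.52 CPM in WT vehicle libraries (-1.05 ± 0.47, edgeR adjusted p = 0.22). The value of 0.413 CPM is 1 count, below the floor of 3 counts in that library. R183W cells with WM1119 had 5.04 and 4.23 CPM of SUV39H2, which gave a difference of 1.18 from WT cells with WM1119 (edgeR adjusted p = 0.188) and an interaction of 1.14 (0.661). Without library 3 the SUV39H2 values were -0.68 in WT cells, 0.81 between the genotypes and 0.75 in the interaction (edgeR adjusted p = 0.414, 0.251 and 0.614). Of 11 partners and readers of H3K9 methylation, 1 rose in WT cells with WM1119, TRIM28, the corepressor that brings SETDB1 to DNA (0.53, edgeR adjusted p = 0.0313, held in 4 of 11 leave-outs). Under vehicle CBX5, the heterochromatin protein HP1α, and PPHLN1, a subunit of the HUSH complex, were higher in R183W cells by 0.43 and 0.40 (edgeR adjusted p = 0.0357 and 0.0289, held in 4 and 5 of 11). None of the 11 passed for WM1119 in R183W cells or between the genotypes under WM1119.

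DOT1L, the only H3K79 methyltransferase of the set, had 32.2, 29.1 and 27.4 CPM in R183W vehicle libraries, against 21.0, 18.7 and 15.6 CPM in WT vehicle libraries. DOT1L was named after its values were seen. The genotypes did not overlap, and the difference of 0.68 ± 0.22 did not pass in edgeR (adjusted p = 0.0613) but did in DESeq2 (0.039) and limma-voom (0.0349). With WM1119 it had 24.2 and 27.8 CPM in R183W cells and 16.5, 18.5 and 31.0 CPM in WT cells, where library 3 was again the high one (0.27, edgeR adjusted p = 0.572, and 0.56 with 0.0837 without it). Of 5 measured partners of DOT1L, AFF1, a subunit of elongation complexes, was lower in R183W cells under vehicle, with 5.94, 9.42 and 7.71 CPM against 19.2, 20.6 and 13.9 CPM in WT cells (-1.22, edgeR adjusted p = 0.00594, held in 11 of 11 leave-outs), and none passed elsewhere. The H4K20 methyltransferases KMT5A, KMT5B and KMT5C passed no test, with log2 changes between -0.27 and 0.61 over the 4 pairwise comparisons. Without library 3 they ran from -0.11 to 0.52 for WM1119 in WT cells and from -0.14 to 0.05 for R183W against WT under WM1119.

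No demethylase passed in any comparison of the edgeR fit with the filter and TMM factors over all 11 libraries. DESeq2 called KDM5B in WT cells with WM1119 (-0.44, adjusted p = 0.0288) and between the genotypes under WM1119 (0.45, 0.0473). So did edgeR on library totals without scaling factors (-0.47 and 0.49, adjusted p = 0.0455 and 0.0434). In WT cells with WM1119 all 4 H3K4 demethylases (KDM1A, KDM1B, KDM5A, KDM5B) had negative log2 changes, from -0.52 to -0.12 with a median of -0.45 (-0.49 to -0.07 and -0.35 without WT WM1119 library 3), and in R183W cells 3 of the 4 were negative with a median of -0.26. KDM5B, which removes H3K4 trimethylation and was named after its values were seen, had 56.4, 58.6 and 64.4 CPM in WT WM1119 libraries, against 88.6, 79.7 and 74.3 CPM in WT vehicle libraries. The groups did not overlap, and the change of -0.44 ± 0.13 had an edgeR adjusted p of 0.0706 and, without WT WM1119 library 3, was -0.49 with 0.0419. In R183W cells KDM5B had 81.6 and 81.9 CPM with WM1119 and 66.2, 69.3 and 76.2 CPM with vehicle (0.21, edgeR adjusted p = 0.446). Its interaction of 0.65 ± 0.19 did not pass (edgeR adjusted p = 0.24, and 0.0901 at 0.68 without library 3). KDM1A (LSD1) works with CoREST, and of 11 partners ZMYM3 rose with WM1119 in both genotypes. ZMYM3, a zinc finger partner of LSD1 complexes, had 85.7 and 72.8 CPM with WM1119 and 48.5, 48.4 and 41.2 CPM with vehicle in R183W cells (0.78, edgeR adjusted p = 0.0129, held in 8 of 11 leave-outs). In WT cells it had 75.8, 76.8 and 97.0 CPM with WM1119 and 53.1, 54.5 and 54.6 CPM with vehicle (0.62, edgeR adjusted p = 0.0273, held in 7 of 11). HDAC2, a deacetylase of CoREST beside HDAC1, was lower in R183W cells under vehicle by 0.47 (edgeR adjusted p = 0.0351, held in 2 of 11). No other CoREST partner passed.

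The H3K9 demethylases KDM3A, KDM3B, KDM4A, KDM4B, KDM4C, KDM7A, PHF2 and PHF8 had a median log2 change of 0.19 for WM1119 in R183W cells, with 7 of 8 positive, and 0.29 in WT cells, with 5 of 8 positive (0.28 and 5 without WT WM1119 library 3). The exception in R183W cells was KDM7A, which also acts on H3K27. KDM7A had 7.44 and 4.83 CPM in R183W WM1119 libraries, against 10.7, 12.0 and 9.53 CPM in R183W vehicle libraries (-0.79 ± 0.42, edgeR adjusted p = 0.321). In WT cells it had 7.69, 4.11 and 2.48 CPM with WM1119, against 6.47, 8.96 and 12.4 CPM with vehicle (-0.90 ± 0.38, edgeR adjusted p = 0.193). The R183W groups did not overlap and the WT groups did, and over the leave-outs the WT change ran from -1.44 without WT WM1119 library 1 (edgeR adjusted p = 0.0416) to -0.63 (highest adjusted p 0.521), with -0.64 without library 3 (0.349). PHF8, named after its values were seen, had 13.2 and 9.36 CPM in R183W WM1119 libraries, against 23.5, 25.9 and 10.7 CPM in WT WM1119 libraries, and the difference of -0.85 (edgeR adjusted p = 0.164) was -1.13 without library 3 (0.00981). KDM4C, at 0.302 to 4.14 CPM, and the H3K27 demethylase KDM6B, at 0.413 to 4.76 CPM, were near the floor in some libraries. KDM4C had 1.32, 1.03 and 0.826 CPM in WT WM1119 libraries and 1.34, 1.33 and 4.14 CPM in WT vehicle libraries, so its value of -1.06 ± 0.74 rested on WT vehicle library 3 (edgeR adjusted p = 0.445, and 0.575 at -0.94 without WT WM1119 library 3). Its interaction was 1.23 ± 1.10 (edgeR adjusted p = 0.8, and 0.722 without that WM1119 library). KDM6B gave -0.77 ± 0.75 for WM1119 in R183W cells and -0.92 ± 0.77 for R183W against WT under WM1119 (edgeR adjusted p = 0.622 and 0.509), the second being -1.36 without WT WM1119 library 3 (0.153). The 95% intervals of these values of KDM6B ran from -2.39 to 0.85 and from -2.57 to 0.72.

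**Figure D4:**
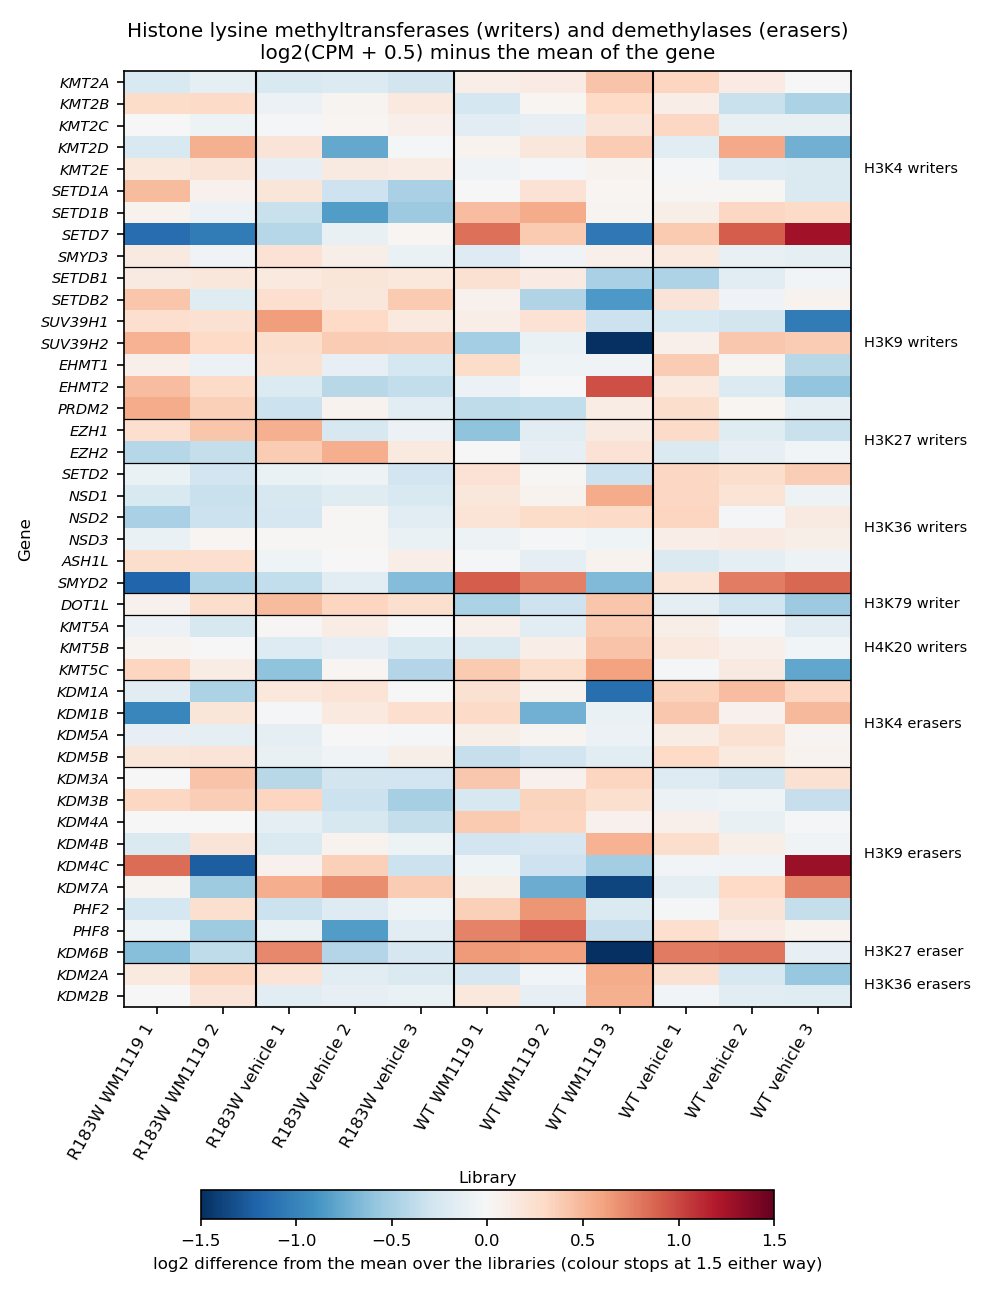
Level of the 43 tested enzymes in each of the 11 libraries as log2(CPM + 0.5) minus the mean of the gene, ordered by role, with blue below and red above the mean and colours that stop at 1.5. EZH2 is below its mean in both R183W WM1119 libraries, SETD7 is far below its mean in the same libraries, SMYD2 is below its mean in all 5 R183W libraries, and WT WM1119 library 3 departs from its group in many rows.

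Members whose libraries did not overlap between groups were counted as well. For WM1119 in R183W cells 18 of 43 members did not overlap (12 higher, 6 lower), 41.9% beside 46.8% of all genes (23.2% higher, 23.6% lower). In WT cells 7 did not (1 higher, 6 lower), 16.3% beside 22.3% (10.7% higher, 11.6% lower). Between the genotypes 18 did not overlap under vehicle (5 higher, 13 lower in R183W cells), 41.9% beside 37.8% (19.3% higher, 18.5% lower). Under WM1119 13 did not overlap (7 higher, 6 lower), 30.2% beside 34.8% (18.5% higher, 16.3% lower). Over both directions together these shares lie near those of all genes. The 13 lower members under vehicle made up 30.2% of the members, beside 18.5% of all genes. The members' median log2 change was 0.05 and 0.11 for WM1119 in R183W and WT cells, against -0.00 for all genes in both. In WT cells it was 0.02 with a GC content offset and 0.01 without WT WM1119 library 3. Between the genotypes it was -0.15 under vehicle and -0.02 under WM1119, against -0.01 and -0.02 for all genes, and the median under vehicle was -0.03 with a transcript length offset.

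Leaving out WT WM1119 library 3, which changes the shared estimate of spread in every comparison, raised the number of members called to 3 for WM1119 in R183W cells, 1 in WT cells, 9 for R183W against WT under vehicle, 6 under WM1119 and 1 in the interaction. The calls over all genes then numbered 1600, 842, 3151, 2895 and 192 of 13897 tested. In shares this is 6.98%, 2.33%, 20.9%, 14% and 2.33% of members beside 11.5%, 6.06%, 22.7%, 20.8% and 1.38% of all genes. The 9 under vehicle were SUV39H1, DOT1L and EZH2, higher in R183W cells, and KMT2A, SETD1B, SMYD2, SETD7, NSD1 and SETD2, lower in R183W cells. The 6 under WM1119 were PRDM2 and KDM5B, higher in R183W cells, and NSD2, SMYD2, SETD7 and PHF8, lower in R183W cells.

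EZH2 is known to be expressed mainly in cycling cells, and genes of DNA replication and proliferation were read beside it. Of 20 such genes 3 fell with WM1119 in R183W cells (E2F1, MCM3, MCM7) and none rose, with a list median of -0.39. In WT cells 8 rose with WM1119 and none fell, with a median of 0.51, led by POLD1 (1.43), MCM5 (1.23), CDT1 (1.12) and MCM4 (1.00). EZH2 did not pass there, at 0.16 (edgeR adjusted p = 0.55), or 0.07 without WT WM1119 library 3 (0.838). Under vehicle 7 were higher in R183W than in WT cells and none lower, with a median of 0.38, led by CCNE1 (1.32), E2F1 (1.09), MCM4 (1.01) and MCM7 (1.00). Under WM1119 5 were lower in R183W cells and none higher, with a median of -0.63, led by MCM6 (-1.21), RRM2 (-1.09), MCM3 (-0.78) and MCM7 (-0.67). In the interaction E2F1 (-1.68), MCM7 (-1.67) and MCM3 (-1.59) passed, with a median of -1.11. The summed level of the 20 genes was 3344 to 3360 CPM in R183W WM1119 libraries, 3991 to 4515 CPM in R183W vehicle libraries, 2861 to 3941 CPM in WT WM1119 libraries and 2391 to 2834 CPM in WT vehicle libraries. The part of proliferation in the EZH2 values was not tested. The counts ranged over the 11 leave-outs from 0 to 9 for WM1119 in R183W cells, 3 to 10 in WT cells, 5 to 8 between genotypes under vehicle, 0 to 11 under WM1119 and 0 to 9 in the interaction. The lowest in R183W cells came when R183W vehicle library 2 was left out, or 1 of the R183W WM1119 libraries. In WT cells it came without WT vehicle library 2 or 3, under WM1119 without R183W WM1119 library 2, and in the interaction without either of R183W vehicle libraries 2 and 3 or either library of R183W cells with WM1119. Leaving out WT WM1119 library 3 gave the highest count in all but the comparison under vehicle, where leaving out WT WM1119 library 1 gave the same 8.

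Of 7 measured genes of SAM supply, the source of the methyl groups, AHCYL1, a relative of S-adenosylhomocysteine hydrolase that also binds IP3 receptors, rose with WM1119 in R183W cells by 0.63 (edgeR adjusted p = 0.0109, held in 7 of 11 leave-outs). AHCYL1 was also higher in R183W than in WT cells, by 0.62 under vehicle (edgeR adjusted p = 0.00275) and by 0.88 under WM1119 (0.000669), each held in 11 of 11. MAT2A, which makes SAM from methionine, was lower in R183W cells by 0.57 under vehicle (edgeR adjusted p = 0.0306, held in 4 of 11) and by 0.70 under WM1119 (0.0293, held in 6). MAT2A had 142, 135 and 118 CPM in R183W vehicle libraries, against 172, 197 and 218 CPM in WT vehicle libraries, and these did not overlap. No gene of this list passed in WT cells with WM1119. Of 9 hypoxia genes, which bear on the oxygen-dependent demethylases, 7 passed the filter and CA9 had no counts. ADM and NDRG1 fell with WM1119 in R183W cells (log2 changes -2.58 and -2.06, held in 9 and 11 of 11 leave-outs), and NDRG1 and BNIP3 fell in WT cells (-1.86 and -0.78, held in 11 and 3). ADM was higher in R183W than in WT cells under vehicle (1.65, held in 11) and BNIP3 under WM1119 (0.87, held in 8), by edgeR. KDM3A, a demethylase known to be induced by hypoxia, gave 0.56 and 0.34 for WM1119 against vehicle in R183W and WT cells (edgeR adjusted p = 0.213 and 0.395), and 0.32 in WT cells without WT WM1119 library 3 (0.487).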

How the data were processed

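The authors deposited 1 table of expected counts per gene, which holds whole numbers. Per the submitters' processing notes, STAR, RSEM and the hg19 build were used, without versions or annotation. Estimated counts share out reads that match several genes, so genes with near-identical copies, and overlapping or antisense genes, are uncertain. Per the labels' protocols, libraries were made with a ScriptSeq kit after DNase treatment, and the molecule is labelled polyA RNA.

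Symbols came from a reference list of gene names, or from GENCODE 29 where that list held none, and 52300 of 57736 IDs received a symbol. Counts were filtered with filterByExpr, scaled with TMM and tested in edgeR 4.0.16 (R 4.3.3, quasi-likelihood, two-sided) in 1 fit of 4 group means over 11 libraries, with no replicate block and a biological coefficient of variation of 19.6%. CPM values use library totals scaled by TMM factors. Floors and intervals of counts cover counting error only. Alternatives used DESeq2 1.42.0, limma 3.58.1 and each library left out. The script was tested on simulated counts.

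Named were members called in any comparison, the 4 with the largest change in each, and up to 4 called genes per list and comparison. The members, lists and rules were chosen with earlier results of these data known. Same-numbered libraries did not deviate together (correlations from -0.391 to 0.137), so numbers were not taken to pair them.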

Additional observations from a re-analysis of the deposited data

How the results depend on the processing

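In edgeR the members called numbered 1 for WM1119 in R183W cells, 0 in WT cells, 2 for R183W against WT under vehicle, 1 under WM1119 and 0 in the interaction. Over the 11 fits that each left out 1 library, these counts ranged from 0 to 3, 0 to 1, 0 to 9, 0 to 6 and 0 to 1, and the members' medians from 0.03 to 0.07, 0.01 to 0.11, -0.21 to -0.07, -0.11 to 0.04 and -0.06 to 0.08. Each highest count was reached without WT WM1119 library 3, with the shares of all genes given for that fit above. Without the filter on low counts the numbers called were 3, 1, 5, 3 and 1, beside 4.74%, 5.5%, 10.2%, 7.62% and 0.816% of all genes. DESeq2 called 1, 1, 7, 6 and 1, beside 6.97%, 7.98%, 15.6%, 10.8% and 1.21%, and limma-voom 1, 0, 7, 1 and 0, beside 4.64%, 4.48%, 15.4%, 7.78% and 0.265%. Library totals without scaling factors gave 1, 1, 4, 2 and 0, beside 4.78%, 5.04%, 13.3%, 8.91% and 0.336% of all genes. A fit of only the groups compared gave 4 in R183W cells, 7 under vehicle and 0 under WM1119. In shares these were 9.76%, 16.7% and 0% of members beside 18.2%, 22.4% and 2.49% of all genes. A GC content offset gave 2 under WM1119 (4.65% of members beside 9.15% of all genes). It turned the change of SETD1B in WT cells with WM1119 to -0.0574, and to -0.0705 with the block, against 0.15 without the offset. The cause was not tested. The interaction of KDM4C ranged from -1.15 to 2.00 over the leave-outs.

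The fit with the replicate number as a block called 0 members for WM1119 in R183W cells, 1 for R183W against WT under vehicle and 0 under WM1119, also with the GC offset. Of all genes it called 1.87%, 8.51% and 4.85%, or 2.25%, 8.77% and 5.36% with the GC offset. With the block alone EZH2 had a log2 change of -0.75 in R183W cells (edgeR adjusted p = 0.0656) and 0.49 under vehicle (0.0748), and NSD2 of -0.67 under WM1119 (0.0646). The check above did not show that the numbers pair the samples, and with 2 or 3 libraries a group it cannot exclude this. EZH2 under vehicle also missed the threshold with a transcript length offset (edgeR adjusted p = 0.0548).

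With 2 or 3 libraries a group at this depth, members under a few CPM, such as KDM4C, KDM6B, SUV39H2 and KDM8, could not show moderate changes.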

Other observations

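Of 19 further lysine methyltransferases and demethylases outside the set, all matched by ID, 17 were tested. JMJD1C, a relative of the H3K9 demethylases KDM3A and KDM3B, was lower in R183W than in WT cells under vehicle by 0.46 (edgeR adjusted p = 0.0212, held in 7 of 11 leave-outs). PRDM16, a lysine methyltransferase and transcription factor, had 17 and 9 counts in R183W WM1119 libraries, against 3, 0 and 0 counts in WT WM1119 libraries (edgeR adjusted p = 0.0429, held in 3 of 11), and 14, 2 and 12 counts in R183W vehicle libraries, against 2, 1 and 2 counts in WT vehicle libraries. No gene of this list passed with WM1119 in either genotype. KDM5C was listed at 0 counts in all 11 libraries, and whether that comes from the annotation or from the cells was not tested.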
